A study of Mus musculus with 16 samples.

Results

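Ribosomal protein genes encode the protein parts of the cytosolic ribosome, and their transcripts were examined here in adipose tissue macrophages (ATMs) of mice on a high-fat diet (HFD). Members were chosen by symbol alone: every listed gene named Rpl or Rps with a number and at most a trailing a, l, x or y, together with Rpsa, Rplp0, Rplp1 and Rplp2. This gave 80 of the 37310 genes in the table, 32 of the small subunit and 48 of the large subunit, spread over 19 chromosomes. Of these, 77 passed the filter on low counts in each comparison and were tested. The other 3 were Rpl10l (0 counts), Rpl39l (5 counts) and Rpl3l (4 counts over the 16 libraries), paralogs known from testis or striated muscle.

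RNA was sequenced from F4/80+ ATMs taken from epididymal fat of 16 male mice that were young adults when the diet began. IRF5-KO mice combined a floxed Irf5 gene with LysM-Cre, a Cre recombinase expressed from the Lyz2 locus in myeloid cells, and WT mice were the wild-type controls. Each genotype was placed on HFD for 4 weeks (short term, ST-HFD) or 12 weeks (long term, LT-HFD), with 4 mice in each of the 4 groups and no group on a chow diet. All groups thus shared the diet and the selection of cells on F4/80, and whether WT mice carried floxed alleles or Cre was not given in the sources used here. Mice on LT-HFD were also older than those on ST-HFD, and age, diet duration and any difference in handling between the durations cannot be told apart.

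On the small subunit the ribosome reads the mRNA, and on the large subunit it joins amino acids into protein. Its proteins are made in matched amounts and fold around the ribosomal RNA in the nucleolus, so their genes are expressed at high level in nearly every cell. In vertebrates these mRNAs typically begin with a C followed by a run of pyrimidines (the TOP motif), through which mTORC1 and the RNA-binding protein LARP1 set how strongly they are translated. An mRNA level does not measure the rate of protein synthesis.

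The libraries held between 3279332 and 4958131 counts, and the 77 tested members were counted in every library. The features with the most counts, a microRNA locus and both mitochondrial ribosomal RNAs, took between 18.6% and 24.1% of counts on ST-HFD and between 26.1% and 34.5% on LT-HFD, so levels are given as CPM, counts scaled to a common library size after adjustment by TMM factors, which set most genes equal between libraries. Irf5 did not separate the genotypes in the direction of its deletion. It was at 262 ± 11.5 CPM in IRF5-KO against 238 ± 23.2 CPM in WT on ST-HFD and 229 ± 26.5 against 193 ± 20.1 CPM on LT-HFD (mean ± SD, n = 4 each). A total per gene does not separate the deleted exons from the others. Lyz2, the locus that carries Cre, was at 1757 ± 251 CPM in IRF5-KO and 3429 ± 288 CPM in WT on ST-HFD (n = 4 each). In WT the log2 fold change of Irf5, LT-HFD over ST-HFD, was -0.30 (edgeR, adjusted p = 0.0485). A plot in the study of Irf5 in WT ATMs of both durations, read by eye, has the higher values on LT-HFD, so the direction of every duration contrast below rests on the deposited labels.

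Start sites of the members were read in the RefSeq promoter table (GRCm38.p6), which matched 59 of the 80 by symbol. The windows below run from 15 bases before to 15 bases from the listed start, 5′ to 3′ on the strand of the gene, and capitals mark a run of at least 6 pyrimidines that starts with C within 10 bases of the start. They are shown for members at both ends of the response to diet duration described below.
Rps21, chr2:180257364-180257393, plus strand: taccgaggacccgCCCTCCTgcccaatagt
Rps27, chr3:90213634-90213663, minus strand: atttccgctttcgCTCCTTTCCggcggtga
Rpl34, chr3:130730323-130730352, minus strand: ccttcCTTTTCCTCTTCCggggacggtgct
Rps23, chr13:90923107-90923136, plus strand: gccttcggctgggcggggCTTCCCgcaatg
Rps7, chr12:28635939-28635968, minus strand: gcttccggtttccacccacctacttccgct
Rpl6, chr5:121204486-121204515, plus strand: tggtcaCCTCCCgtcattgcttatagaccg
Rpl28, chr7:4792950-4792979, plus strand: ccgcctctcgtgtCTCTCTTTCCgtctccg
Rpl4, chr9:64173372-64173401, plus strand: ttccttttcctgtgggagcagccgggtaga

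Such a run stood near a listed start of 33 of the 59 matched members (55.9%) and of 5694 of the 26994 genes in the promoter table (21.1%). Genes with several listed starts, as 10 members had, were counted here and below if any of them matched. Rps21, for example, also has a listed start without a run. In the 300 bases from 250 before to 50 after the start, searched on both strands, GGGCGG was present in 59.3% of matched members and 38.2% of all genes, and CCGGAA in 54.2% and 16.6%. AAGATGG was present in 15.3% of the matched members and 7.28% of all genes. TATAAA, searched on the strand of the gene from 40 to 16 bases before the start, was in 0 of the 59 members and in 2.41% of all genes. The listed start need not be the one used in ATMs, and a match describes the letters only.

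Per kilobase of annotated exon, the most abundant transcript was that of Rplp1, a protein of the acidic stalk that recruits elongation factors, at 1779 CPM per kb over the 16 libraries. Other abundant transcripts were those of Rps23 of the decoding centre (646 CPM per kb), Rpl36 (587), Rpl26 (547), the stalk base Rplp0 (532), Rpl19 (516), Rpl8 of the peptidyl transferase centre (472), Rpl13a (413) and the third stalk protein Rplp2 (408). At the low end among tested members were Rpl35a (35.4 CPM per kb), Rps15a (31.5) and Rps27l (24.7). The gene listed as Rpl24 was at 22.3, but GENCODE M21 gives its identifier to Zbtb11. The exon length used for it (7440 bases) is thus that of Zbtb11, and which gene its counts came from was not tested. The scale depends on the annotated length: over the longest coding transcript alone Rpl26 reached 1202 CPM per kb, while Rplp1 stayed at 1779 and Rpl35a moved to 241.

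The members were higher on LT-HFD than on ST-HFD in both genotypes. In WT ATMs, 63 of 77 members were higher on LT-HFD than on ST-HFD and 0 were lower at an adjusted p under 0.05 (edgeR's quasi-likelihood test). Of all 11560 genes tested, 25.3% were called and 12.1% were called higher. The median log2 fold change of the members was 0.41, against 0.02 over all genes tested, and 74 members lay above 0, as did 51.9% of all genes. In IRF5-KO ATMs, 67 of 77 members were higher and 0 were lower, where 32.8% of all genes were called and 15.6% were called higher. Their median log2 fold change was 0.46, against 0.04 over all genes, and only Rpl29, Rpl4 and Rpl21 lay below 0, as did 46.9% of all genes. An unadjusted p under 0.05 was found for 68 members in each genotype, and for 35.9% of all genes in WT and 42.8% in IRF5-KO.

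The members took 2.75% to 3.22% of the counts outside the 3 largest features in the 8 ST-HFD libraries. In the 8 LT-HFD libraries their share was 3.90% to 4.50%. By group the share was 3.02 ± 0.14% in WT and 2.86 ± 0.17% in IRF5-KO on ST-HFD, and 4.19 ± 0.27% and 4.18 ± 0.22% on LT-HFD (mean ± SD, n = 4 mice each). The durations did not overlap and the genotypes did at each duration. As a share of all counts, with the 3 largest features included, the range was 2.09% to 2.62% on ST-HFD, and the LT-HFD range was 2.81% to 3.17%. In bulk RNA, more transcript per cell and more cells of a type rich in it cannot be told apart.

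**Figure D1:**
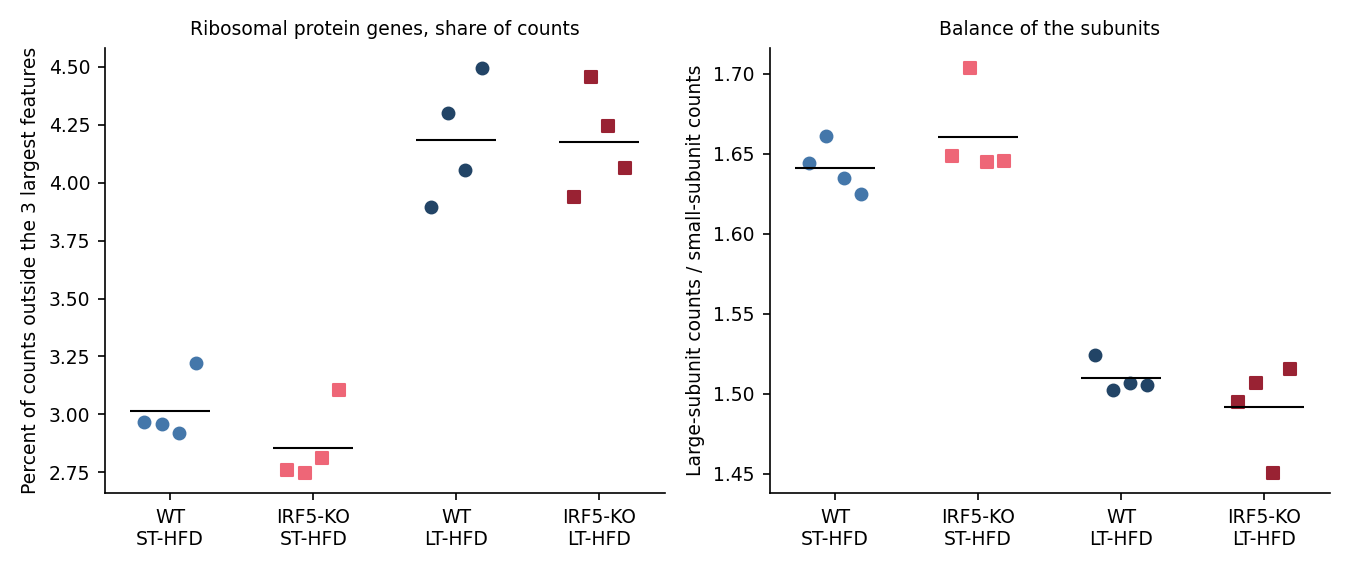
Left, share of the counts outside the 3 largest features that fell on the 80 ribosomal protein genes (percent, vertical axis) in each library; right, counts on large-subunit genes divided by counts on small-subunit genes. Points are libraries (4 per group), lines are group means; all 8 LT-HFD libraries lie above the 8 ST-HFD libraries on the left (3.90% or more against 3.22% or less) and below them on the right.

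The median change was larger in the small subunit than in the large one. Among small-subunit genes, 27 of 32 rose in WT and 29 of 32 in IRF5-KO, with median log2 fold changes of 0.50 and 0.56. Among large-subunit genes, 36 of 45 rose in WT and 38 of 45 in IRF5-KO, with medians of 0.38 and 0.43. The counts on large-subunit genes were 1.62 to 1.70 times those on small-subunit genes in the ST-HFD libraries and 1.45 to 1.52 times in the LT-HFD libraries. The durations did not overlap, and without Rps14, the member with the largest change, the ratios were 1.66 to 1.74 and 1.499 to 1.56. The difference between the subunits was not tested.

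The largest change was that of Rps14, a platform protein needed to mature the small subunit. Its levels were 146, 151, 162 and 182 CPM in WT and 153, 145, 174 and 187 CPM in IRF5-KO on ST-HFD. On LT-HFD they were 276, 378, 286 and 336 CPM in WT and 317, 336, 399 and 315 CPM in IRF5-KO. Every LT-HFD library was above every ST-HFD library. In WT this was a 1.99-fold change, or 0.99 on the log2 scale with a standard error of 0.12 (edgeR, adjusted p = 1.87e-05), and in IRF5-KO a 2.07-fold change, or 1.05 with a standard error of 0.12 (adjusted p = 6.51e-06).

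Rps21, a surface protein of the small subunit (ENSMUSG00000039001, chromosome 2 from 180257377 to 180258445 of GRCm38), was at 108, 106, 116 and 119 CPM in WT and 103, 99.8, 106 and 112 CPM in IRF5-KO on ST-HFD. On LT-HFD it was at 179, 204, 206 and 226 CPM in WT and 206, 213, 207 and 200.2 CPM in IRF5-KO. The durations were again separate, and the spread within groups was small beside the gap. Its log2 change of 0.86 in WT and 0.97 in IRF5-KO, each with a standard error of 0.09, had adjusted p = 2.06e-06 and 3.68e-07 in edgeR. None of the 100-base stretches of its transcript occurs in another annotated gene.

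Rps7, which acts in the early processing of small-subunit RNA (ENSMUSG00000061477, chromosome 12 from 28630854 to 28635953), was at 234, 239, 193 and 264 CPM in WT on ST-HFD and at 332, 476, 384 and 424 CPM on LT-HFD. In IRF5-KO it was at 222, 191, 231 and 237 CPM on ST-HFD and 383, 411, 462 and 407 CPM on LT-HFD. With no overlap between durations, Rps7 rose by 0.80 on the log2 scale in WT and by 0.92 in IRF5-KO, each with a standard error of 0.12 (edgeR, adjusted p = 0.00013 and 2.51e-05). Its listed start has no pyrimidine run of the kind searched.

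Rps27, a zinc-finger protein of the small subunit (ENSMUSG00000090733, chromosome 3 from 90212522 to 90213651), was at 87.6, 98.2, 90.8 and 92.7 CPM in WT on ST-HFD and at 142, 184, 163 and 207 CPM on LT-HFD. In IRF5-KO it was at 87.2, 86.9, 111 and 98.2 CPM on ST-HFD and 138, 156, 185 and 169.9 CPM on LT-HFD. The log2 fold change was 0.91 in WT (standard error 0.12, adjusted p = 4.01e-05 from edgeR) and 0.76 in IRF5-KO (standard error 0.12, adjusted p = 0.000167). Its paralog Rps27l was the least abundant tested member in counts, at 17.3 ± 3.12 CPM in WT and 16.6 ± 1.5 CPM in IRF5-KO on ST-HFD and 21.3 ± 3.37 and 25.6 ± 5.31 CPM on LT-HFD (mean ± SD, n = 4 each). Rps27l rose in IRF5-KO (log2 fold change 0.63, standard error 0.18, adjusted p = 0.0111 from edgeR), and in WT its log2 fold change was 0.29 (adjusted p = 0.249).

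Rpl34 had the largest change of the large subunit. It was at 228, 246, 216 and 260.3 CPM in WT on ST-HFD and at 366, 443, 363 and 451 CPM on LT-HFD, and in IRF5-KO at 233, 224, 247 and 241 CPM and at 396, 400.1, 401 and 382 CPM. No ST-HFD library reached an LT-HFD library, and the log2 fold change was 0.77 in WT and 0.74 in IRF5-KO (standard error 0.10 in each, adjusted p = 1.7e-05 and 1.65e-05 from edgeR). Rps23 of the decoding centre changed by a log2 fold change of 0.70 in WT and 0.74 in IRF5-KO, and Rps24 by 0.65 and 0.70.

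**Figure D2:**
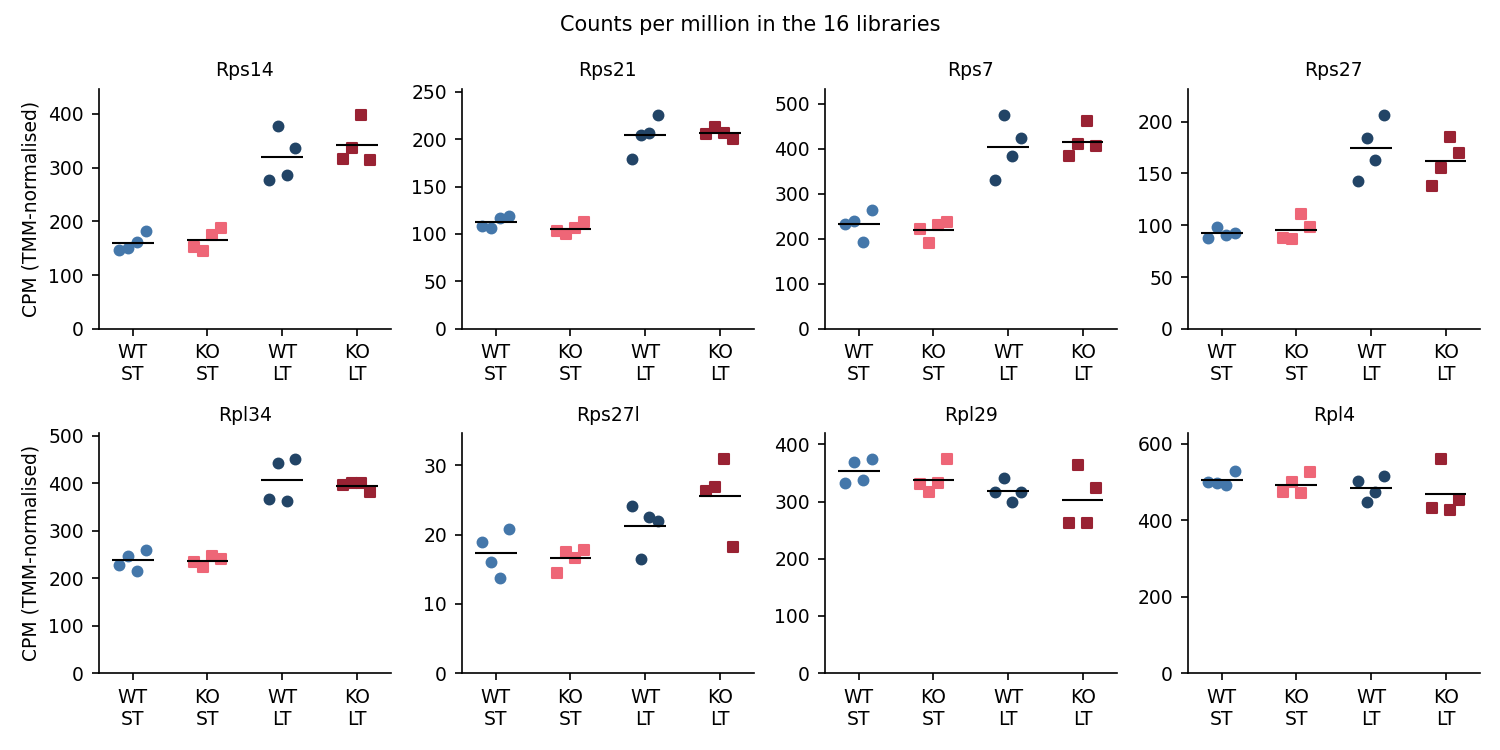
Level of 8 ribosomal protein genes (TMM-normalised CPM, vertical axes from 0) in each library of WT and IRF5-KO (KO) mice on ST-HFD (ST) and LT-HFD (LT). Points are libraries (4 per group), lines are group means; Rps14, Rps21, Rps7, Rps27 and Rpl34 separate the durations, while Rpl29 and Rpl4 do not, with Rpl4 between 426 and 560.3 CPM in all 16 libraries.

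By role, the 3 stalk proteins rose in both genotypes: Rplp0 by a log2 fold change of 0.53 in WT and 0.62 in IRF5-KO, Rplp1 by 0.40 and 0.43, and Rplp2 by 0.37 and 0.37. Rpl5 and Rpl11, which escort the smallest ribosomal RNA into the large subunit and bind Mdm2 when ribosome assembly stalls, rose by 0.43 and 0.36 in WT and by 0.42 and 0.32 in IRF5-KO. Rps27a, which is made as a fusion to ubiquitin, rose by 0.54 in WT and 0.76 in IRF5-KO. Of the proteins lining the exit tunnel of the nascent chain, Rpl17 rose by 0.43 and 0.61 and Rpl39 by 0.50 and 0.59. Rpl4, the other tunnel protein listed, had log2 fold changes of -0.06 and -0.08 (adjusted p = 0.713 and 0.582 from edgeR).

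Another list held 6 small-subunit proteins (Rps2, Rps3, Rps6, Rpsa, Rps20 and Rps25). Of these, 5 rose in WT and 6 in IRF5-KO, with median log2 fold changes of 0.35 and 0.41. Rps6, the substrate of the S6 kinases, was the exception in WT (log2 fold change 0.22, adjusted p = 0.119 from edgeR) and rose by 0.31 in IRF5-KO (adjusted p = 0.023). Of 18 members whose human counterparts are mutated in Diamond-Blackfan anaemia, 17 rose in WT and 16 in IRF5-KO, with medians of 0.50 in each. The partners of the paralogs rose too: Rpl3, next to the peptidyl transferase centre, by 0.27 and 0.28, Rpl10, which is added late in large-subunit maturation, by 0.33 and 0.29, and the X-linked Rps4x by 0.30 and 0.28. The call of Rpl3 in WT was lost without WT ST-HFD replicate 3, in which Rpl3 was at 510.1 CPM against 546 to 547 CPM in the other 3 libraries.

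A total of 62 members rose in both genotypes, as did 9.21% of all 11560 genes. Rps29 passed the test in WT and not in IRF5-KO, and Rpl13, Rpl7a, Rps27l, Rps3a and Rps6 passed it in IRF5-KO and not in WT, but none of these 6 passed the test of the difference given at the end (edgeR, adjusted p of at least 0.969). For 59 members all 8 LT-HFD libraries were above all 8 ST-HFD libraries, as for 6.32% of all genes. Within WT, 65 members did not overlap between durations, as did 12.3% of all genes in that direction, and within IRF5-KO 66 did, against 14.3% of all genes. The diet effects of the 77 members, estimated from separate WT and IRF5-KO mice, had a Spearman rho of 0.89 and a Pearson r of 0.92, given as a description since genes are not independent replicates and both rest on the same TMM scaling.

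**Figure D3:**
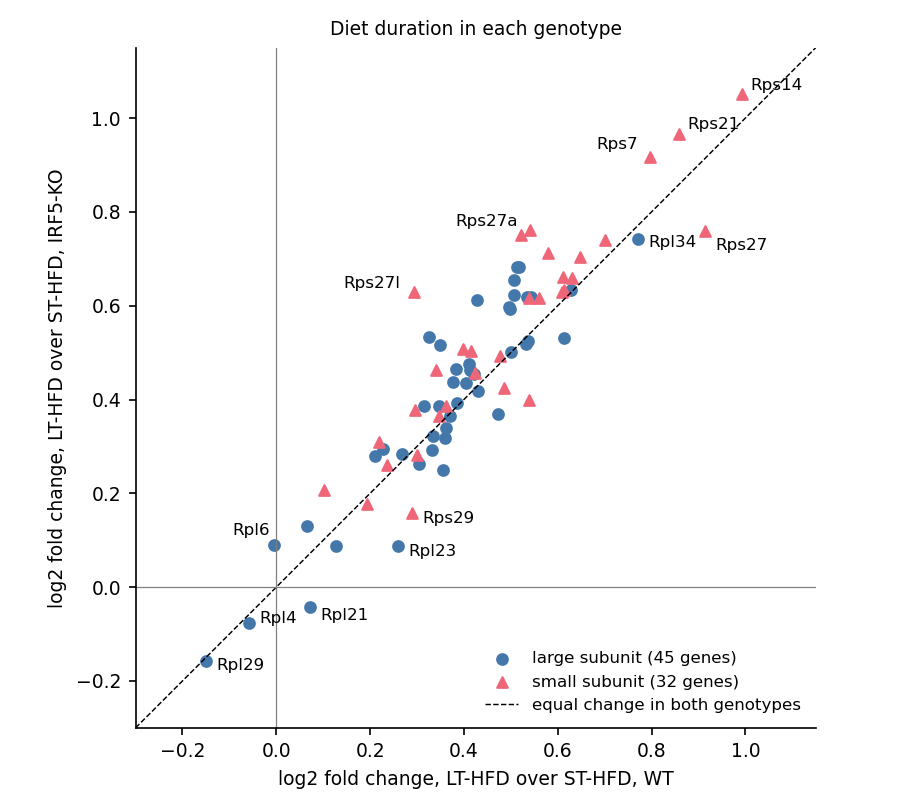
Log2 fold change of LT-HFD over ST-HFD in WT (horizontal axis) and IRF5-KO (vertical axis) for the 77 tested ribosomal protein genes, large subunit as circles and small subunit as triangles, with the dashed line marking equal change. Points run from Rpl29 (-0.15 and -0.16) to Rps14 (0.99 and 1.05), and small-subunit genes make up the upper end.

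The 9 members that passed the test in neither genotype included Rpl4, Rpl6, Rpl21, Rpl23, Rpl28 and Rpl29. Rpl29, a small basic protein of the large subunit (ENSMUSG00000048758, chromosome 9 from 106429454 to 106431568), was at 332, 369, 338 and 375 CPM in WT on ST-HFD and 317, 341, 300.1 and 316 CPM on LT-HFD. In IRF5-KO it was at 330.4, 316, 333 and 375 CPM and at 263, 365, 262 and 323 CPM. The durations overlapped, and the log2 fold change was -0.15 in WT and -0.16 in IRF5-KO (standard error 0.11 in each, adjusted p = 0.347 and 0.281 from edgeR).

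Rpl4, whose extension reaches into the exit tunnel (ENSMUSG00000032399, chromosome 9 from 64173375 to 64178666), was at 499, 496, 493 and 529 CPM in WT on ST-HFD and at 503, 447, 474 and 515 CPM on LT-HFD. In IRF5-KO it was at 473, 501, 471 and 527 CPM and at 431, 560.3, 426 and 452 CPM. Rpl6 was at 372 ± 22.8 CPM in WT on ST-HFD and 371 ± 14.6 CPM on LT-HFD, and at 349.6 ± 24.0 and 372 ± 48.0 CPM in IRF5-KO (mean ± SD, n = 4 each). Both genes overlapped between durations in each genotype. Under upper-quartile factors their WT log2 fold changes were 0.02 and 0.07, a move of 0.08 that the median of all genes shared, to 0.10, so that both stayed below it.

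Ribosomal proteins that the naming rule leaves out were listed as a check. Fau, which encodes a ubiquitin-like fusion to a small-subunit protein, rose by a log2 fold change of 0.43 in WT and 0.47 in IRF5-KO (adjusted p = 0.00654 and 0.0028 from edgeR). Rack1, the scaffold on the small subunit listed as Gnb2l1, rose by 0.56 and 0.73, and the paralog Rpl22l1 by 0.52 and 0.78. Rpl36al had log2 fold changes of 0.16 and 0.05 (adjusted p = 0.350 and 0.787).

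Other parts of the translation machinery did not share one direction, where 12.1% of all genes were called higher and 13.2% lower in WT, and 15.6% higher and 17.2% lower in IRF5-KO. Of 34 translation factors tested, 10 rose and 4 fell in WT, and 11 rose and 6 fell in IRF5-KO. Eif3h of the initiation complex had log2 fold changes of 0.52 in WT and 0.55 in IRF5-KO, whereas those of Eif5b, which joins the subunits at initiation, were -1.99 and -2.06 and those of Eif3a were -0.95 and -1.04. Of 50 ribosome biogenesis genes, 2 rose and 12 fell in WT, and 1 rose and 16 fell in IRF5-KO. The log2 fold changes of Tcof1, a nucleolar cofactor of ribosomal RNA transcription, were -1.98 and -2.31, and those of Ncl (nucleolin) were -0.96 and -1.11.

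Of 23 tested genes of mTORC1, LARP1 and MYC, 0 rose and 6 fell in WT, and 1 rose and 9 fell in IRF5-KO. Larp1, which binds the TOP motif, had log2 fold changes of -1.37 in WT and -1.42 in IRF5-KO (adjusted p = 1.1e-06 and 5.05e-07 from edgeR), and Mtor of -0.64 and -0.82. Of 75 mitochondrial ribosomal protein genes, 3 rose and 1 fell in WT, and 13 rose and 0 fell in IRF5-KO, with median log2 fold changes of 0.18 and 0.31, so that the share called higher was under that of all genes in WT and near it in IRF5-KO. Of 8 tested protein genes of the mitochondrial genome, 2 rose and 0 fell in WT, and 1 rose and 4 fell in IRF5-KO. Of 8 tested snoRNA host genes, Gas5 rose in WT by 0.58 (adjusted p = 0.0358 from edgeR), and in IRF5-KO its log2 fold change was 0.25 (adjusted p = 0.355).

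Transcript length moved with diet duration across the table. Among other coding genes with a longest transcript of up to 600, 600 to 1000 and 1000 to 1500 bases, the median log2 fold change of LT-HFD over ST-HFD was 0.15, 0.24 and 0.19 in WT, and 0.40, 0.34 and 0.26 in IRF5-KO. For other coding genes over 4000 bases it was -0.14 in WT and -0.17 in IRF5-KO. In the 64 members of up to 1500 bases the median was 0.41 in WT and 0.46 in IRF5-KO, against 0.20 and 0.29 in the 1356 other coding genes of that length. Among the members themselves the Spearman rho of the diet effect with transcript length was -0.02 in WT and -0.06 in IRF5-KO (77 genes, a description), and -0.26 and -0.28 among other coding genes. The part of length, or of RNA fragmentation, in the members' change was not tested.

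**Figure D4:**
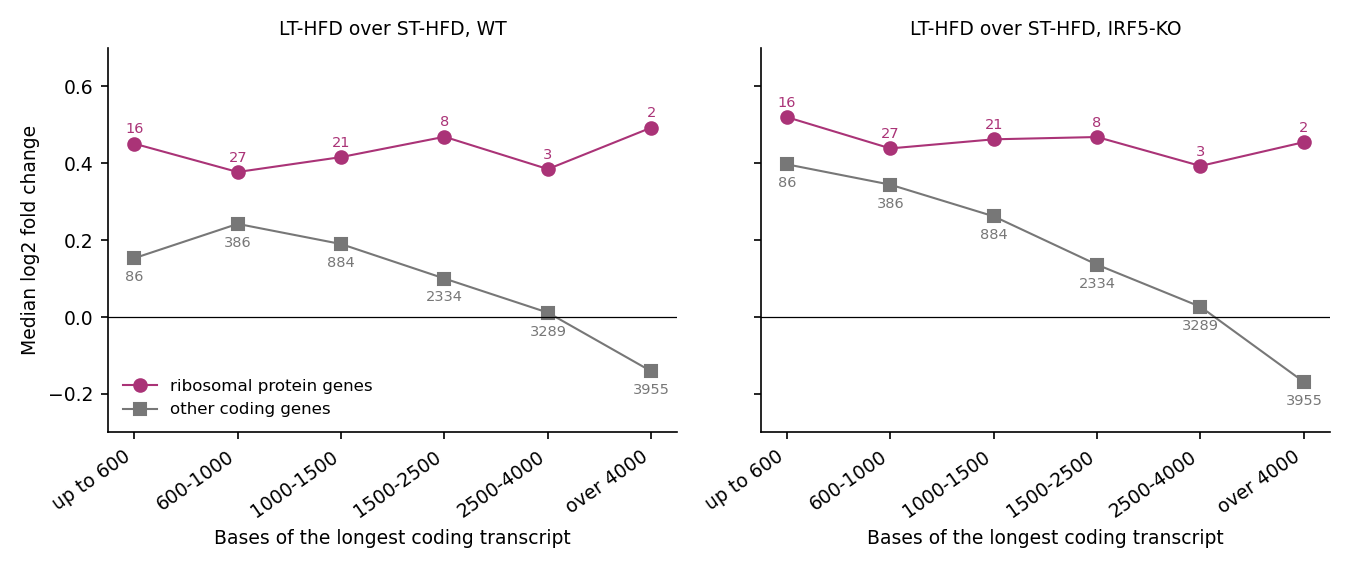
Median log2 fold change of LT-HFD over ST-HFD (vertical axis) against the length of the longest coding transcript in bases (horizontal axis, classes) for ribosomal protein genes (circles) and other coding genes (squares) in WT and IRF5-KO, with the number of genes beside each point. The other genes fall from 0.24 (600 to 1000 bases) to -0.14 (over 4000) in WT, while the members lie above them in every class, some of which hold 2 or 3 members. The members over 4000 bases include the gene listed as Rpl24, for which the length of Zbtb11 (4920 bases) was used.

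Markers of cells other than macrophages also moved with diet duration. The 7 fibroblast or preadipocyte markers (collagens, Dcn, Lum, Pdgfra and Dpt), none of them at 0 in any group, summed to between 985 and 1139 CPM in WT and between 671 and 1633 CPM in IRF5-KO on ST-HFD. On LT-HFD they summed to 3126 to 9135 CPM in WT and 3248 to 7487 CPM in IRF5-KO, with no overlap between durations. The 11 macrophage markers, all detected, summed to 10368 to 11706 CPM in WT and 9491 to 11229 CPM in IRF5-KO on ST-HFD, and to 8597 to 10618 CPM and 7609 to 8395 CPM on LT-HFD. The 9 adipocyte markers overlapped, at 745 to 2948 CPM on ST-HFD and 868 to 2701 CPM on LT-HFD, and neutrophil markers summed to at most 2.57 CPM with Ly6g at 0 in every library. Summed endothelial, T cell, B cell, dendritic cell and erythroid markers also overlapped between durations. Of 4 tested endothelial markers, 1 was called higher in each genotype. In IRF5-KO, 1 of 2 tested T cell and 1 of 4 tested dendritic cell markers were called lower.

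Within LT-HFD the members did not follow the fibroblast markers in one direction: the WT library with the most of these (9135 CPM) had the highest summed level of members (32679 CPM), and the IRF5-KO library with the most (7487 CPM) had the lowest of its group (28252 CPM). Without those 2 libraries, an alternative added after the data were seen, 56 of 77 members rose in WT and 66 in IRF5-KO. Over all genes, the number called in this alternative stayed within 1.5 times of that in the main fit. That fit called 25.3% of all genes in WT and 32.8% in IRF5-KO. The remaining LT-HFD libraries still held at least 3126 CPM of these markers, and the part of the other cells in the members' change was not tested.

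Reads of ribosomal protein genes can match processed pseudogenes, and how reads with several matches were counted was not given in the sources used here. Stretches of 100 bases of each member's longest coding transcript were searched in the transcripts of other annotated genes. The share found there ran from 0% (Rps21, Rps3, Rpl22 and Rps27l among others) to 91.1% (Rpl5). A long transcript lowers this share: Rps20 (3706 bases) was at 5.91% with 213 stretches shared. Of the 16 tested members with under 10% of stretches shared, 14 rose in WT and 15 in IRF5-KO, with medians of 0.53 and 0.63. Of the 26 with over 50% shared, 20 and 23 rose, with medians of 0.39 and 0.43. The 163 listed pseudogenes of these genes together held 0.28% to 0.41% as many counts as the members. In exons, 27 members overlap another gene on the same strand, most often a small nucleolar RNA, and 20 of these rose in WT and 22 in IRF5-KO, with medians of 0.36 and 0.38. The strand setting of the counting was not given in the sources used here, and 19 members overlap a gene on the opposite strand.

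The members were also split by whether any listed start had a pyrimidine run. Of the 32 tested members with a run, 26 rose in WT and 29 in IRF5-KO, with medians of 0.46 and 0.56. Of the 24 without a run, 21 and 22 rose, with medians of 0.41 and 0.44, and of the 21 with no matched promoter 16 and 16 rose. Rps7, without a run, rose by 0.80 in WT, whereas Rpl6 and Rpl28, with one, had log2 fold changes of 0.00 and 0.06.

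The second question of the design is whether loss of IRF5 in myeloid cells changed these genes at either duration. On ST-HFD, 0 of 77 members passed the test between genotypes (edgeR's quasi-likelihood test), 0 had an unadjusted p under 0.05, and DESeq2 called 0. Of all 10958 genes, 0.00913% were called and 1.84% had an unadjusted p under 0.05. The log2 fold change of IRF5-KO over WT was below 0 for 72 members and above 0 for 5, where 49.3% of all genes were below and 50.7% above 0. Its median was -0.07 over members and 0.00 over all genes, at -0.08 in the small and -0.06 in the large subunit.

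The values on ST-HFD ran from -0.16 for Rpl30, a large-subunit protein, to 0.05 for Rps27. Rpl30 was at 136, 151, 138 and 146 CPM in WT and 125, 132, 124 and 133 CPM in IRF5-KO. Every IRF5-KO library was below every WT library, as for Rps13 and Rpl28 among the members and for 0.83% of all genes (0.639% lay wholly higher), but its adjusted p was 0.9998 (edgeR, standard error 0.08). Members moved together within a group: replicate 4 was above its group mean for 71 of 77 members in WT and 70 in IRF5-KO, and the median member deviated from its group mean by 0.09 in each on the log2 scale. The pooled SD of that deviation was 0.08 over the libraries of all 4 groups, LT-HFD included. On ST-HFD the deviations of replicates 1 to 4 were -0.01, 0.01, -0.08 and 0.09 in WT. In IRF5-KO they were -0.03, -0.05, -0.0002 and 0.09. Within the 4 pairs of same-numbered libraries, the members took 2.97%, 2.96%, 2.92% and 3.22% of the counts outside the 3 largest features in WT and 2.76%, 2.75%, 2.81% and 3.10% in IRF5-KO, lower in IRF5-KO in each pair. With the pairs as a block 0 members were called (edgeR). Without WT replicate 4, 17 members were higher in IRF5-KO, and without IRF5-KO replicate 4, 2 were.

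On LT-HFD, 0 of 77 members passed the test between genotypes (edgeR's quasi-likelihood test), 0 had an unadjusted p under 0.05, and DESeq2 called 0, where 0.0182% of all 10987 genes were called (0.0091% higher) and 5.72% had an unadjusted p under 0.05. The log2 fold change was above 0 for 25 members and below 0 for 52, against 50.1% and 49.9% of all genes, and its median was -0.04, against 0.00 over all genes. None of the members was free of overlap between the genotypes, where 1.34% of all genes lay wholly higher and 1.67% wholly lower. It ran from -0.21 for Rps29, another zinc-binding small-subunit protein, to 0.26 for Rps27l. Rps29 was at 252, 279, 224 and 241 CPM in WT and at 189.9, 221, 205 and 248 CPM in IRF5-KO, which overlap (standard error 0.12, adjusted p = 0.859 from edgeR). The direction of the list depended on the libraries used, since without the 2 libraries with the most fibroblast markers 55 members were higher in IRF5-KO. With library totals in place of TMM factors 41 were, but that scaling moved the median of all genes by 0.04, as it did that of the members. Leaving out 1 library gave 17 to 41 members higher, with 41 without IRF5-KO replicate 1 and 40 without WT replicate 4.

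**Figure D5:**
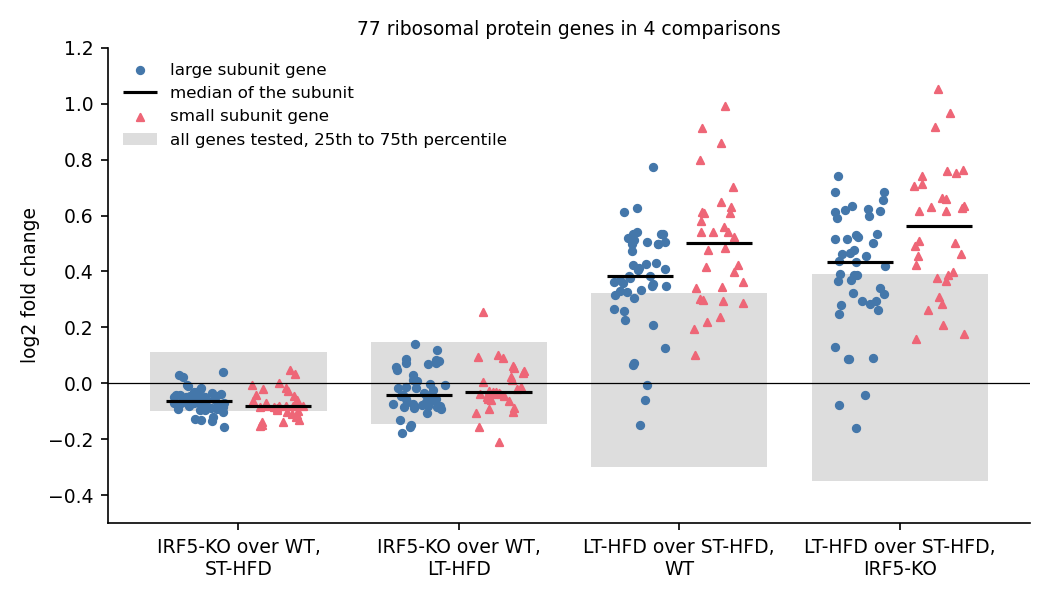
Log2 fold change (vertical axis) of the 77 tested ribosomal protein genes in 4 comparisons, large subunit as circles and small subunit as triangles, with the median of each subunit as a line; grey boxes span the 25th to 75th percentile of all genes tested. Between genotypes the members stay between -0.21 and 0.26, and between durations their medians are 0.38 to 0.56.

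The diet effect was compared between genotypes by the interaction term. Of the 77 members 0 passed the test (edgeR's quasi-likelihood test), 0 had an unadjusted p under 0.05, and DESeq2 called 0. Of all 11560 genes 0% were called and 3.93% had an unadjusted p under 0.05. The difference of the log2 fold changes, IRF5-KO minus WT, was above 0 for 53 members and below 0 for 24, where 48.8% of all genes were above and 51.2% below 0, with a median of 0.04 over the members. It ran from -0.17 for Rpl23, at the face of the large subunit that meets the small one, to 0.33 for Rps27l (standard errors 0.14 and 0.25, adjusted p = 0.969 for both from edgeR). Rps18 (0.23), Rps27a (0.22) and Rpl38 (0.21) followed Rps27l, each with a standard error of 0.14 or 0.15. Standard errors of this difference over the members ran from 0.11 to 0.25.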

How the data were processed

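F4/80+ ATMs were analysed by stranded total RNA sequencing (10 ng of RNA, ribosomal RNA depleted, reads of 100 bases in pairs). Per the submitters' processing notes and the study's methods, the authors trimmed reads with fastp 0.19.11, aligned them to mm10 with STAR 2.7.3a and deposited raw counts per gene, with no normalization. Annotation release, strand setting and the treatment of multiply mapped reads were not given in the sources used here. All 37310 listed genes were used, and 32620 were matched to GENCODE M21.

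Members were read from fits over the whole table in edgeR 4.0.16 under R 4.3.3 (filterByExpr, TMM, glmQLFit and glmQLFTest, Benjamini-Hochberg over all genes tested, call at an adjusted p under 0.05). Genotypes were compared within each duration over 8 libraries. Diet duration and the interaction were fitted over 16 libraries. Depth was 3279332 to 4958131 counts per library. The method was tested on simulated data. Alternatives were DESeq2 1.42.0, other scalings, no filter, a replicate block, other sets of libraries and leaving out each library. Levels per kb used the union of GENCODE exons.

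Members and lists were chosen with earlier results of these data known. Members eligible to be named were those called in a comparison, those with the 5 smallest p or the 3 largest changes each way, the 10 highest and 5 lowest levels per kb, the short role groups and those untested, and for other lists up to 5 genes with the smallest p. Some of these genes are not reported here by name.

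Same-numbered ST-HFD libraries of both genotypes correlated in their deviations from the group means (0.38, 0.49, 0.18 and 0.30 over 9765 genes), and were taken as pairs in the replicate block. The labels do not state such a pairing, and differently numbered libraries ran from -0.52 to 0.48. On LT-HFD the correlations were -0.07, -0.15, 0.06 and 0.24. No pair of libraries within a group agreed within sampling noise. The labels do not tie libraries to cages or days, so p-values measure the spread between these mice.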

Additional observations from a re-analysis of the deposited data

Results flagged for a closer look

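In 6 of 104 groups of 4 libraries tested by Dixon's ratio, 1 library stood apart from the other 3, and chance marks about 1 in 20 groups. The share of counts on the members outside the 3 largest features was 3.22% in WT ST-HFD replicate 4, above the 2.92% to 2.97% of the other 3. The ratio of large-subunit to small-subunit counts was 1.70 in IRF5-KO ST-HFD replicate 2, against 1.64 to 1.65 in the others.

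Among single members, Rpl3 was at 510.1 CPM in WT ST-HFD replicate 3, against 546 to 547 CPM in the others, and Rpl4 was at 529 CPM in WT ST-HFD replicate 4, against 493 to 499 CPM. Rplp1 was at 943 CPM in IRF5-KO LT-HFD replicate 1, against 1018 to 1031 CPM, and Rps27a was at 544 CPM in IRF5-KO LT-HFD replicate 2, against 436 to 446 CPM. Without WT ST-HFD replicate 3 the log2 fold change of Rpl3 with diet duration in WT was 0.24 and no longer passed the test.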

How the results depend on the processing

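The counts of members that rose with diet duration stayed within 1.5 times of the reported ones in all alternatives run. They were lowest with library totals alone (44 of 77 in WT) and without the filter on low counts (45 in WT and 55 in IRF5-KO), and were 55 to 64 in WT and 59 to 67 in IRF5-KO with any 1 library left out. Median log2 changes of the members moved to 0.32 with library totals alone in WT, and in IRF5-KO to 0.57 with upper-quartile factors and 0.57 with totals without the 3 largest features. Between genotypes and in the interaction 0 members were called under every alternative.

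Over all genes, calls between genotypes on ST-HFD numbered 2 (reported 1) without the filter, by DESeq2, with the replicate block and over 16 libraries. On LT-HFD (reported 2) they numbered 1 with library totals, 0 without the 3 largest features in the totals, 6 without the filter, 6 by DESeq2, 0 with the replicate block, 0 without the 2 libraries with the most fibroblast markers, and 0 to 2 when each library was left out. The replicate block left 0 members called between genotypes on either duration, and 57 (WT) and 62 (IRF5-KO) between durations. Between durations the block joined same-numbered ST-HFD and LT-HFD libraries of a genotype, a pairing that the labels do not state. Their deviations correlated at 0.12, 0.37, -0.18 and -0.21 in WT and at -0.04, -0.39, -0.02 and -0.21 in IRF5-KO.

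Values near 0 changed sign. Under upper-quartile factors and totals without the 3 largest features these changes followed the shift of the median of all genes (0.08 and 0.07 in WT, 0.11 and 0.10 in IRF5-KO). For Rpl6 with diet duration in WT (reported 0.00) values were 0.0023 with median-ratio factors, 0.0748 with upper-quartile factors, 0.0636 with totals without the 3 largest features, 0.0025 with TMM factors set without the members, 0.0145 in the fit of 8 libraries, 0.00282 without the 2 libraries with the most fibroblast markers, and -0.046 to 0.0336 with 1 library left out. For Rpl4 they were 0.0207 and 0.00993 in WT, and 0.0326 and 0.0261 in IRF5-KO, with upper-quartile factors and totals without the 3 largest features. For Rpl21 in IRF5-KO they were 0.066 and 0.05997, and -0.0975 to 0.00716 with 1 library left out. The interaction of Rps27 (reported -0.16) was 0.00199 without the 2 libraries with the most fibroblast markers, a choice added after the data were seen. On ST-HFD, leaving out each library gave -0.0381 to 0.104 for Rps14, -0.0336 to 0.129 for Rpl10a and -0.0217 to 0.0931 for Rps27 between genotypes. For the other changes of sign the cause was not tested.

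The standard error of the interaction was 0.25 for Rps27l, the tested member with the fewest counts, and 0.11 at its lowest among the members. The part of depth in the calls was not tested.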
